A study of Homo sapiens with 4 samples.

Results

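MX1, MX2, RSAD2 and CMPK2 are 4 antiviral genes that interferon induces in most human cells, and their signals were followed through ALKBH3 knockdown in PC3 cells. The members were fixed by name. The spot tables carry no gene names, so probes were named through their transcript accession in the RefSeq gene table, and all that it gave for the 4 genes were taken. A probe of these genes whose accession is not in that table would be missed. That gave 1 probe in 1 spot for each gene, or 4 of 34127 probes and 4 of 19102 named genes.

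PC3 is a cell line derived from a bone metastasis of prostate cancer. Cells were infected for 48 h with lentivirus carrying a short hairpin RNA (shRNA) against ALKBH3, an AlkB-family enzyme that removes methyl groups from single-stranded DNA and RNA, or against GFP as the control. Puromycin selection then ran for either 48 h or 96 h, and RNA of each of the 4 combinations went onto 1 Agilent single-colour array. All 4 arrays therefore share infection, vector and selection, and no array of uninfected cells was used here. Neither the hairpin used against ALKBH3 nor whether the RNA came from separate cultures is given in the labels, so the p-values measure only the spread between these arrays, which may be technical. The 2 arrays taken at 48 h shared 1 slide and those taken at 96 h another. Knockdown is thus compared within a slide, whereas time and slide cannot be told apart.

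MX1 and MX2 are large GTPases of the dynamin family. MX1 assembles on the nucleocapsids of influenza and other viruses in the cytoplasm, while MX2 acts at the nuclear pore and restricts HIV. RSAD2, also called viperin, is a radical SAM enzyme that turns CTP into a chain-terminating nucleotide, and its neighbour CMPK2 is a mitochondrial kinase that phosphorylates UMP and CMP. Type I and type III interferons act on these genes through JAK1 and TYK2, which activate a transcription factor complex that contains STAT2 and IRF9. This complex binds the interferon stimulated response element, a repeat of GAAA with a short spacer.

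The genes lie in adjacent pairs, MX2 and MX1 on chromosome 21 and CMPK2 and RSAD2 on chromosome 2. RefSeq promoter windows of 300 bases (250 before and 50 from the transcript start, build GRCh38.p14) were at hand for 8 starts of 3 genes, namely 3 of MX1, 2 of RSAD2 and 3 of CMPK2, numbered here along the direction of each gene. They are shown because the 4 genes are known as interferon stimulated genes, and no window was at hand for MX2. Below, the windows just before the second MX1 start (chr21:41425989-41426238, plus strand) and the second RSAD2 start (chr2:6877527-6877776, plus strand) are written 5' to 3', with capitals marking each repeat on either strand.
MX1 start 2: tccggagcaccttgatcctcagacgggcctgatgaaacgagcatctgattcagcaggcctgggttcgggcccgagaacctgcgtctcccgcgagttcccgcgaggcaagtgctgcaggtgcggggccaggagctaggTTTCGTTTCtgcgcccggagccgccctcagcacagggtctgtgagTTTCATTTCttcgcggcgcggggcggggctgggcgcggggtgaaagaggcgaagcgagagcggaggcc
RSAD2 start 2: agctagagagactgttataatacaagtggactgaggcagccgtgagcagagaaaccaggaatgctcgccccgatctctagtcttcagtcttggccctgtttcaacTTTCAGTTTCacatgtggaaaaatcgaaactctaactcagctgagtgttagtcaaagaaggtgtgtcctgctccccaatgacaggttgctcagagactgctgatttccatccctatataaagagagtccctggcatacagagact

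The repeat was searched on both strands as GAAANNGAAA, with 2 free bases, and as GAAANGAAA, with 1 free base. The second spacing was added after the windows had been read. The first spelling occurred in 3.57% and the second in 3.12% of 35116 RefSeq windows of the same length. Of the 8 windows, 3 held the first, 4 the second and 6 either of them. In the window of the second MX1 start, TTTCGTTTC stood at -113 to -105 and TTTCATTTC at -68 to -60 from the start. In that of the second RSAD2 start, TTTCAGTTTC stood at -145 to -136. The first MX1 start was followed by GAAACCGAAA at bases 12 to 21 of the transcript, which overlaps GAAATGAAA at bases 7 to 15.
MX1 start 1, around base 12: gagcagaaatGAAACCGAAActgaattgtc

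The first RSAD2 start was the single window of all 35116 (0.00285%) with 4 repeats of the shorter spelling. That spelling was added after the windows had been read, so the count is a description. This start also faces CMPK2. This RSAD2 start lies 66 bases from the third CMPK2 start, and from these starts the genes are transcribed away from each other. The second and first CMPK2 starts lie on its other side, at -22 and -750 bases, so transcription from them runs across the RSAD2 start. The 2 matches in the window of the third CMPK2 start are the same genomic bases as the 2 of RSAD2 nearest to its start, read on the other strand. The second RSAD2 start lies between 11142 and 11958 bases from the CMPK2 starts. The 4 copies of the RSAD2 window and the CMPK2 copy upstream of its start are given with their flanks, capitals marking the repeat.
RSAD2 start 1, -152: ccccgcctcgGAAACGAAAcctggcgggag
RSAD2 start 1, -118: gcgccggcggGAAACGAAAcccggagggag
RSAD2 start 1, -84: gcgccagcggGAAACGAAAgcgaagcgttg
RSAD2 start 1, -60: gcgttgcgggGAAACGAAAgccggaggccc
CMPK2 start 3, -14: ggcctccggcTTTCGTTTCcccgcaacgct

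**Figure D1:**
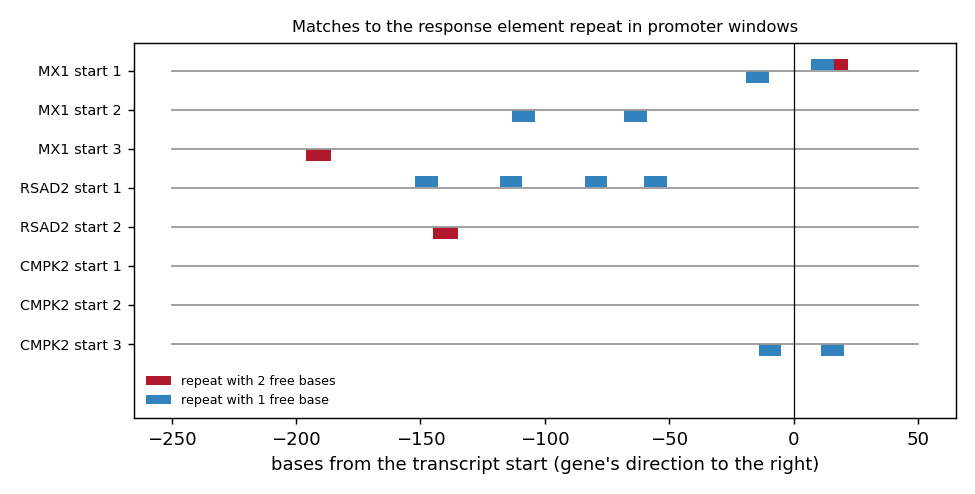
Position of each repeat in the 8 promoter windows, in bases from the transcript start at 0. Red bars have 2 free bases and blue bars 1 free base, and bars above a line read GAAA on the strand of the gene while bars below it read on the other strand. RSAD2 start 1 carries 4 blue bars, and CMPK2 starts 1 and 2 carry none.

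With the first spelling, windows of 2 of the 3 genes held a match, against 4.38% of 27305 genes with a window. With either spelling all 3 genes had one, against 7.83%. The second spelling was added after these windows had been read, and CMPK2 matched by it alone, so these shares are descriptions. Among 38 other interferon stimulated genes chosen as a list, 24 of 32 genes with a window matched the first spelling and 29 either. These matches are letters in a window and were not tied to the arrays by a test.

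The knockdown was read first on ALKBH3 itself. Its probe A_23_P35989 had log2 signals, relative to the 75th percentile of each array, of -0.62 and -0.61 in the 48 h and 96 h control arrays and of -2.66 and -2.67 in the ALKBH3 shRNA arrays. It fell by 2.05 ± 0.12 on the log2 scale (value ± standard error, limma adjusted p = 0.217, and 0.0247 with time point as a block), and the second ALKBH3 probe fell by 1.63 (limma adjusted p = 0.240, and 0.0373 with the block). Between 67.0% and 70.9% of probes were well above background on an array, and the 75th percentile lay between intensities of 2134 and 2385. The epithelial and mesenchymal markers KRT8, KRT18, EPCAM, CDH1 and VIM were well above background on all 4 arrays and 0 of them were called for the knockdown, whereas KLK3, which encodes prostate-specific antigen, was on none, and 6 of 7 immune cell markers were tested and lay between -0.09 and 0.23 in log2 fold change.

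All 16 spots of the 4 genes were well above background and 0 were saturated. The image software put the error of each at 10% of its intensity, which is 0.14 on the log2 scale. Signals below are log2 relative to the 75th percentile of the array and are compared only within a probe, since the brightness of different probes is not comparable.

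MX1 (probe A_23_P17663) had log2 signals of 4.45 and 6.09 at 48 h and of 3.63 and 4.78 at 96 h, control shRNA first. The intensities behind these were 46501, 155331, 28871 and 65625. The groups did not overlap, and the ALKBH3 shRNA array at 96 h was above the control at 48 h by 0.34. MX1 had the narrowest such margin of the 4 genes.

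MX2 (probe A_23_P6263) had log2 signals of 0.58 and 3.33 at 48 h and of 0.01 and 1.38 at 96 h, control first. In intensity these were 3180, 22895, 2352 and 6200. The control arrays were within 0.57 of each other, and the lower ALKBH3 shRNA array exceeded the higher control by 0.80.

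RSAD2 (probe A_24_P28722) had log2 signals of 0.27 and 3.33 at 48 h and of -0.57 and 0.89 at 96 h, control first. Its intensities were 2571, 22839, 1579 and 4411. The lower ALKBH3 shRNA array exceeded the higher control by 0.62, and the 48 h array of ALKBH3 shRNA stood far above the other 3.

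CMPK2 (probe A_33_P3401826) had log2 signals of 0.66 and 3.16 at 48 h and of 0.16 and 1.14 at 96 h, control first. Its intensities were 3363, 20301, 2620 and 5245. The margin between the lower ALKBH3 shRNA array and the higher control was 0.48. In each of the 4 genes the arrays thus had the same order, ALKBH3 shRNA at 48 h, ALKBH3 shRNA at 96 h, control at 48 h and control at 96 h. The share of all probes with this order, or with groups that did not overlap, was not counted, so both are descriptions.

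**Figure D2:**
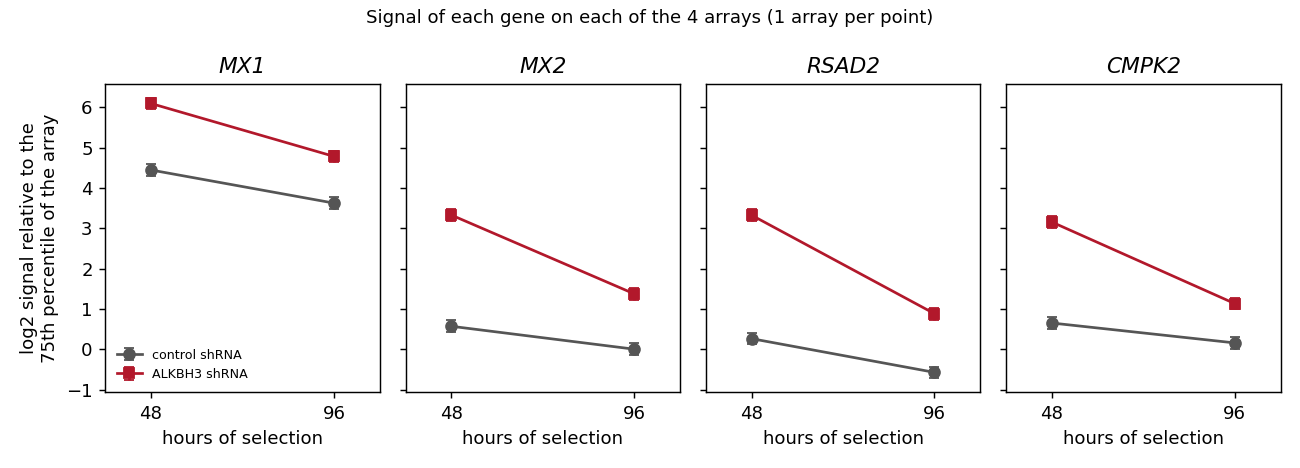
Log2 signal of the 4 genes, relative to the 75th percentile of each array, against hours of selection, with 1 array per point, control shRNA in grey and ALKBH3 shRNA in red. Bars are the error of the image software (0.14) and not a replicate error, and in every panel red lies above grey at both times and both lines go down.

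ALKBH3 knockdown raised 3 of the 4 genes past the cutoffs used here, at least a 2-fold difference together with an unadjusted p below 0.05. The study names a 2-fold change and the same P value without saying whether it was adjusted. Of 23244 probes tested, 0.895% were called higher in this way. In bulk RNA, more cells expressing a gene and more of its RNA per cell cannot be told apart. RSAD2 was 4.78-fold higher with ALKBH3 shRNA over both times, or 2.26 ± 0.85 on the log2 scale (limma adjusted p = 0.650). MX2 was 4.18-fold higher, at 2.06 ± 0.68 (limma adjusted p = 0.590). MX1 was 2.64-fold higher, at 1.40 ± 0.52 (limma adjusted p = 0.645). CMPK2 had a log2 fold change of 1.74 ± 0.69 and missed the cutoff (limma adjusted p = 0.670). By size, RSAD2 ranked 18, MX2 27, CMPK2 51 and MX1 104 among the 23244 probes, whose median was 0.0033. The unadjusted limma p-values of the 4 genes lay between 0.0309 (MX2) and 0.0567 (CMPK2), on either side of the cutoff. Differences in size between the 4 genes were not tested. The epithelial adhesion gene EPCAM was also higher with ALKBH3 shRNA, by 0.96 at 48 h and 0.99 at 96 h on the log2 scale (limma adjusted p = 0.451, and 0.0377 with time point as a block), and CDH1 by 0.89 and 0.58, and their part in the result was not tested.

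The fit above takes the time points as replicates, and none of the 4 genes passed after adjustment over all probes. With time point as a block, the limma adjusted p was 0.0413 for MX1, 0.0654 for MX2, 0.0701 for RSAD2 and 0.0966 for CMPK2. All 4 genes were then called, against 1.11% of all probes, and the standard errors fell to 0.14, 0.34, 0.39 and 0.37 in the same order. MX1, with the smallest fold change, had the smallest error and was the 1 gene of these 4 below an adjusted p of 0.05. For each probe, the residual of this fit is only the difference between its 48 h and 96 h effects. That difference was 0.49 for MX1 and from 1.38 to 1.60 for the others, so the error does not measure replicate precision. The fit for time with shRNA as a covariate has the same errors, and the low p of MX1 there rests on the same residual.

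These calls changed when single arrays were left out. Leaving out 1 array also makes time and slide unequal between the shRNAs. The values below therefore mix knockdown with the change from 48 h to 96 h. Within the 96 h slide the log2 effects were 1.16 for MX1, 1.37 for MX2, 1.45 for RSAD2 and 0.97 for CMPK2. With the ALKBH3 shRNA array at 48 h left out, the log2 fold changes were 0.75 for MX1, 1.09 for MX2, 1.04 for RSAD2 and 0.73 for CMPK2, and MX2 alone was called. Leaving out the control array at 96 h gave 0 calls, at 0.99, 1.78, 1.84 and 1.49, and leaving out the ALKBH3 shRNA array at 96 h gave 4, at 2.06, 3.04, 3.48 and 2.75. Without the 48 h control array MX1, MX2 and RSAD2 were called.

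**Figure D3:**
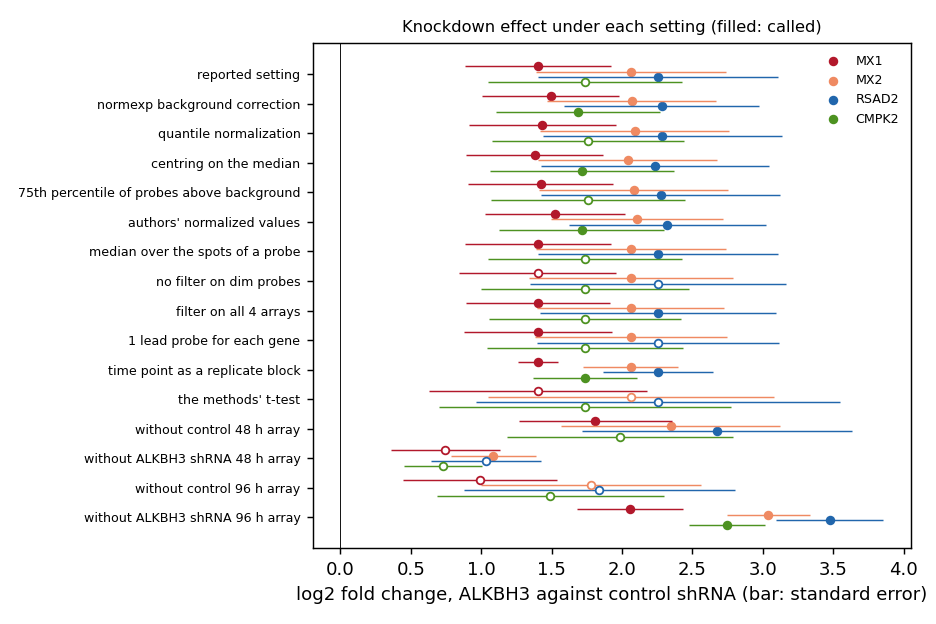
Log2 fold change of the 4 genes, ALKBH3 against control shRNA, under each processing setting, with bars of 1 standard error on either side and filled points where the cutoffs were passed. Every point lies to the right of 0, from 0.73 to 3.48, and the extremes are the settings that leave out an ALKBH3 shRNA array. The label of the methods' t-test marks the unpaired t-test run in place of limma.

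Signals of all 4 genes fell from 48 h to 96 h. Over both shRNAs the log2 change was -1.64 ± 0.39 for RSAD2 (limma adjusted p = 0.0722), -1.26 ± 0.34 for MX2 (limma adjusted p = 0.0881), -1.26 ± 0.37 for CMPK2 (limma adjusted p = 0.103) and -1.07 ± 0.14 for MX1 (limma adjusted p = 0.0356). All 4 passed the cutoffs in a fit with shRNA as a covariate, in which 0.839% of probes were called lower at 96 h. RSAD2 ranked 14 among the largest falls of 23244 probes, MX2 88, CMPK2 91 and MX1 165. CDH1, which encodes E-cadherin, was also called lower at 96 h, with a log2 change of -1.33 (limma adjusted p = 0.0334). The slide changes with the time, and the part of either in the fall was not tested. Without the shRNA covariate the same changes were not called, with limma p between 0.189 and 0.288.

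With ALKBH3 shRNA alone the signal at 96 h was 5.43-fold lower for RSAD2, 4.06-fold for CMPK2, 3.87-fold for MX2 and 2.48-fold for MX1. At least a 2-fold fall was seen in 1.51% of all probes, and these single-array differences carry no test. With control shRNA alone it was lower by 1.78-fold for RSAD2, 1.77-fold for MX1, 1.48-fold for MX2 and 1.41-fold for CMPK2. Thus none of the 4 genes was 2-fold lower at 96 h in control cells, where 194 of 23244 probes were. Among the falls in control cells RSAD2 ranked 360, MX1 390, MX2 1044 and CMPK2 1431. The lower quartile of all probes there was a log2 change of -0.19. In each of the 4 genes the log2 fall was larger with ALKBH3 shRNA. MX1 had the most similar falls, -1.31 with ALKBH3 shRNA and -0.82 with control.

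**Figure D4:**
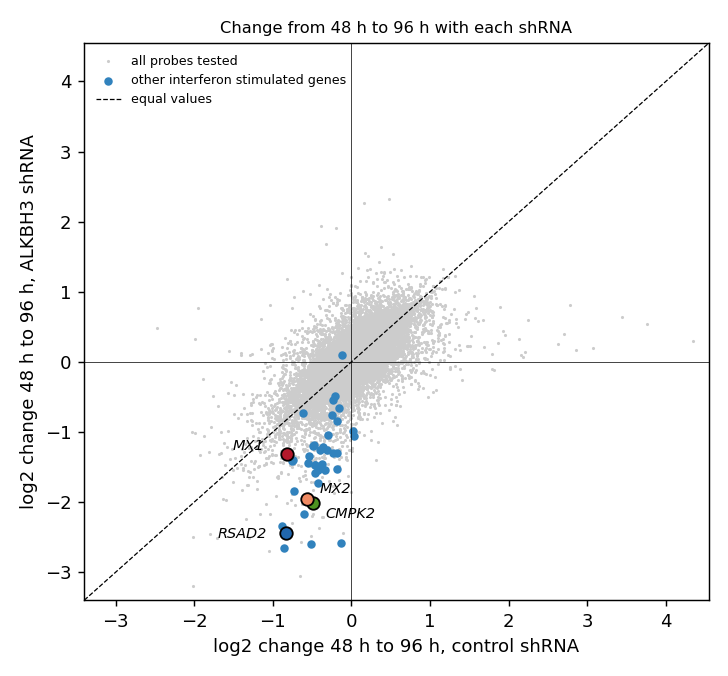
Log2 change from 48 h to 96 h with ALKBH3 shRNA (vertical) against that with control shRNA (horizontal) for 23244 probes in grey, the other interferon stimulated genes in blue and the 4 genes in larger labelled points. The 4 genes lie below the dashed line of equal change, RSAD2 lowest of the 4 at -2.44 and -0.84.

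The difference between ALKBH3 and control shRNA was larger at 48 h than at 96 h for each of the 4 genes. At 48 h, RSAD2 was 8.33-fold higher with ALKBH3 shRNA and ranked 9 of 23244 probes, MX2 6.75-fold and 17, CMPK2 5.66-fold and 29, and MX1 3.13-fold and 125. At that time 1.63% of probes were at least 2-fold higher, and all 4 genes were. At 96 h the differences were 2.74-fold for RSAD2, 2.59-fold for MX2, 2.23-fold for MX1 and 1.96-fold for CMPK2, with ranks of 94, 120, 198 and 345. Here 1.35% of probes were at least 2-fold higher, and 3 of the 4 genes were.

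The log2 knockdown effect was smaller at 96 h by 1.60 for RSAD2, 1.53 for CMPK2, 1.38 for MX2 and 0.49 for MX1. Over all probes this difference had a median of -0.03 and quartiles of -0.16 and 0.12. On the log2 scale MX1 kept 70.2% of its 48 h effect, MX2 49.7%, RSAD2 47.5% and CMPK2 38.9%. The 4 genes therefore spread over 1.41 at 48 h and over 0.48 at 96 h, and CMPK2, ahead of MX1 at 48 h, was behind it at 96 h. With 1 array for each shRNA and time, the difference of the effects leaves no residual degree of freedom and was not tested.

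**Figure D5:**
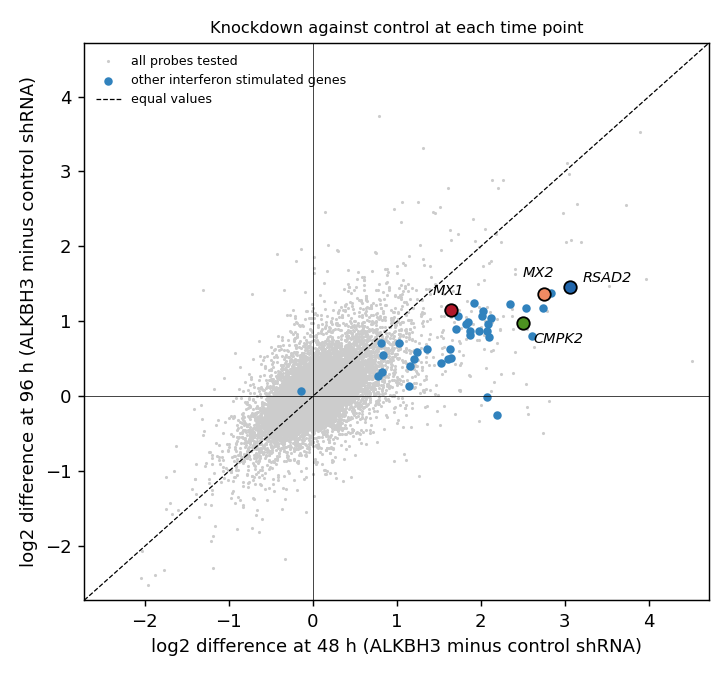
Log2 difference between ALKBH3 and control shRNA at 96 h (vertical) against that at 48 h (horizontal) for 23244 probes in grey, the other interferon stimulated genes in blue and the 4 genes in larger labelled points. The 4 genes lie below the dashed line of equal effects, MX1 nearest to it at 1.65 and 1.16, and RSAD2 is farthest right of the 4 at 3.06 and 1.45.

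The 4 patterns were compared after each probe was centred on its own mean over the 4 arrays, with the root mean square of the differences as the distance. MX2 and CMPK2 were closest to each other (0.17), then MX2 and RSAD2 (0.22). The neighbours on the chromosome were farther apart, at 0.32 for RSAD2 and CMPK2 and 0.41 for MX1 and MX2, and MX1 and RSAD2 were farthest apart at 0.58. These are descriptions over 4 arrays that share slides.

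The genes nearest to each member outside the 4 were taken by the same distance. For MX1 they were the RNA sensor RIGI (0.041), IL4I1 (0.079) and THEMIS2 (0.096). For MX2 they were OASL (0.094), TLR3 (0.14) and CXCL10 (0.18), and for RSAD2 CXCL10 (0.082), OASL (0.19) and HSH2D (0.24). CXCL10 was not well above background on the control arrays, so its distances rest partly on unmeasured values. For CMPK2 they included TRANK1 (0.11) and OASL (0.13). RIGI, OASL and CXCL10 belong to the list of interferon stimulated genes below, and OASL, an oligoadenylate synthetase-like protein, was near to 3 of the 4 genes.

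Genes upstream of the 4, from ligands to transcription factors, gave 0 calls for the knockdown in the fit without a block. No interferon ligand was called among 6 tested of 16 on the array, which is too few to set against the 0.895% of all probes, and 9 of the 16 were not well above background on any array. The type III ligands IFNL1 and IFNL2 had log2 fold changes of 0.85 and 0.70, with 1.09 and 1.31 at 48 h and 0.60 and 0.08 at 96 h. At 48 h 3 of the 6 tested ligands, IFNL1, IFNL2 and IFNA7, were at least 2-fold higher, against 1.63% of all probes, with no test. IFNA7 was well above background on 0 control arrays and IFNL1 on 1. Both were tested only because both ALKBH3 shRNA arrays showed them well above background, so the count is a description. Over both times IFNL1 was the 1 ligand below an unadjusted limma p of 0.05. IFNB1 was well above background on the 48 h array of ALKBH3 shRNA alone, with log2 signals of -7.61 and -5.44 at 48 h and -7.51 and -6.98 at 96 h, control first, and was not tested. Among 9 receptors and transducers 0 were called and 0 had an unadjusted limma p below 0.05, and their highest log2 fold change was 1.14. With time point as a block 1 of the 9 was called higher, and 1 was called lower at 96 h in the fit for time. At 48 h 1 of the 9 was at least 2-fold higher, with no test. These 9 are also too few to set against the shares of all probes. The type III receptor IFNLR1 had a log2 fold change of 0.71, STAT2 of 0.41 and the kinase TYK2, the lowest of the 9, of -0.23. The transcription factor IRF7 had a value of 0.76, IRF1 of 0.10 and IRF3 of -0.17, and IRF7 was the 1 of these 3 with an unadjusted limma p below 0.05.

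Of 38 other interferon stimulated genes, 36 were tested by their brightest probe, and 15 were called higher and 0 lower with ALKBH3 shRNA. Among the brightest probes of all 14549 genes tested, 1.07% were called higher. The list was chosen with earlier results of these arrays known, so its count is a description. Its median log2 fold change was 1.32, and the 4 genes had a median of 1.90. OASL had a value of 1.96, past the fold but not the p cutoff. The chemokine CXCL10 did not pass the background limit on the control arrays and was at least 3.11-fold higher with ALKBH3 shRNA (limma adjusted p = 0.663), a lower bound with no place in the order. IFI44 (1.86), the mitochondrial protein IFI6 (1.79), the ISG15 ligase relative HERC6 (1.58), SAMD9 (1.58), the viral RNA-binding protein IFIT1 (1.58) and IFI44L (1.55) were the largest called, and ZC3HAV1, a zinc finger antiviral protein, was lowest at -0.04. At 48 h the median was 1.83 and at 96 h 0.80, against 2.63 and 1.26 for the 4 genes. The effect was larger at 48 h in 35 of the 36, against 45% of all genes. From 48 h to 96 h 9 of the 36 were called lower, against 0.839% of all probes.

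Relatives of the 4 proteins did not pass the cutoffs, with or without time point as a block. Among the brightest probes of all genes tested, 1.07% were called higher and 0.241% lower without the block. Lists of this size are too small to set 0 calls against these shares. In the fit without the block, NME4 was the 1 relative with an unadjusted limma p below 0.05. Of 10 other members of the dynamin superfamily, 0 were called, and their log2 fold changes lay between -0.31 for ATL2 and 0.07 for MFN2. Among 7 other radical SAM enzymes 0 were called, from -0.21 for RSAD1 to 0.27 for CDKAL1, a tRNA-modifying enzyme. Of 25 nucleotide kinases and CTP-supplying enzymes 0 were called. CMPK1, which phosphorylates UMP and CMP in the cytoplasm, had a value of -0.04 and CTPS1, which makes CTP, of 0.07. NME4, a mitochondrial nucleoside diphosphate kinase, had the lowest value at -0.81 (limma adjusted p = 0.384), and with time point as a block its limma adjusted p was 0.0471.

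The genes next to both pairs were not called either, and they are too few to set against the share of all genes called. Beside MX2 and MX1, TMPRSS2 had a log2 fold change of 0.11, BACE2 of -0.34 and RIPK4 of -0.04, and FAM3B was well above background on 2 arrays and was not tested. Beside CMPK2 and RSAD2, RNF144A had a value of -0.18 and ID2 of -0.10, and SOX11 was not well above background on any array. No probe was named for the lncRNA gene NRIR next to CMPK2.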

How the data were processed

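The authors deposited spot intensities from Agilent Feature Extraction (version 10.7.3.1 in the file headers), made on each 1-colour array alone by subtracting background and spatial trends, and a table of log2 values that they had normalized between arrays with limma. From the intensities, spots marked as not uniform or as outliers (180 to 379 an array) were dropped, log2 values were centred on the 75th percentile of each array, and spots of a probe were averaged. Each array held 43118 spots that are not controls, of 34127 probes.

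Transcript accessions were matched to the RefSeq gene table (GRCh38.p14), which named 24910 probes and left 9217 unnamed. A probe was tested when both arrays of either shRNA showed it well above background. The 23244 such probes were fitted with limma 3.58.1 in R 4.3.3 (lmFit and eBayes), ALKBH3 against control shRNA without a covariate and 96 h against 48 h with shRNA as a covariate. Calls needed a 2-fold difference and a p below 0.05, as the study names them, with the p taken as unadjusted. Benjamini-Hochberg adjustment ran over the 23244 probes. The time point in the labels, which is also the slide, pairs the arrays, and the changes from 48 h to 96 h correlated between the shRNAs at 0.66 over probes. The number of arrays limits the precision.

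Every probe that the table gave for the 4 genes is named. In each list, a gene stands for its brightest probe, and the 3 highest, the lowest and up to 6 called genes may be named, beside the 3 nearest patterns and the neighbours on the chromosome. CMPK1 and CTPS1 fall outside this rule and were chosen after their values were seen. Some genes that the rule would name are not reported here. The members and lists were chosen with earlier results of these data known.

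Alternatives were normexp background correction (offset 50), quantile normalization, centring on the median and the percentile over probes above background on all arrays. The authors' log2 values and the median over spots were also used. Alternatives in the fit were other filters on dim probes, 1 probe a gene, time point as a block, no covariate and an unpaired t-test. The others were the adjusted p alone and leaving out each array.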

Additional observations from a re-analysis of the deposited data

How the results depend on the processing

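The direction of the knockdown effect and of the change with time was the same for all 4 genes under every alternative run, and what varied was which of them passed the cutoffs. CMPK2, not called as reported, was called with normexp background correction (1.69), centring on the median (1.71), the authors' normalized values (1.71) and time point as a replicate block (1.74). With the block MX1, MX2 and RSAD2 stayed called. With no filter on dim probes MX1 (1.40) and RSAD2 (2.26) were not called, which left 1 of the 4 genes and 9 interferon stimulated genes. With 1 lead probe for each gene RSAD2 (2.26) was not called. An unpaired t-test was also run in place of limma, which the study names for its arrays. It called 0 of the 4 genes (MX1 1.40, MX2 2.06, RSAD2 2.26) and 0 interferon stimulated genes, against 60 probes higher and 24 lower. Leaving out each array in turn gave log2 fold changes of 0.75 to 2.06 for MX1, 1.09 to 3.04 for MX2, 1.04 to 3.48 for RSAD2 and 0.73 to 2.75 for CMPK2, with 0 to 4 of the 4 genes, 2 to 33 interferon stimulated genes, 240 to 515 probes higher and 52 to 138 probes lower called. In these fits the lone array of a group is assumed to vary like the other group. Time and slide are then unequal between the groups, so the values mix knockdown with the change over time. Probes called higher, 208 as reported, were 76 with normexp, 118 with the authors' values, 498 with no filter and 123 with a filter on all 4 arrays. Those called lower, 54 as reported, were 27 with normexp, 113 with no filter and 35 with 1 lead probe. By the limma adjusted p alone 0 were higher and 0 lower, while 1777 had an unadjusted p below 0.05 and 496 passed the adjusted p with the block.

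For time, the changes of MX2 (-1.26) and CMPK2 (-1.26) were not called with no filter, which left 2 of the 4 genes and 5 interferon stimulated genes. With no shRNA covariate 0 of the 4 genes (MX1 -1.07, MX2 -1.26, RSAD2 -1.64, CMPK2 -1.26), 0 interferon stimulated genes and 0 receptors and transducers were called. Probes called higher at 96 h, 50 as reported, were 13 with normexp, 76 with median centring, 25 with the authors' values, 872 with no filter, 28 with a filter on all 4 arrays, 27 with 1 lead probe, 33 with no covariate and 980 by the adjusted p alone. Those called lower, 195 as reported, were 89 with normexp, 126 with no covariate and 1028 by the adjusted p alone. Leaving out an array leaves no residual degree of freedom here, and the value is then the change within 1 shRNA, from -1.31 to -0.82 for MX1, -1.95 to -0.57 for MX2, -2.44 to -0.84 for RSAD2 and -2.02 to -0.49 for CMPK2. The difference between the 48 h and 96 h effects was 0.46 to 0.60 for MX1, 1.31 to 1.42 for MX2, 1.48 to 1.64 for RSAD2 and 1.49 to 1.53 for CMPK2. The cause of each of these shifts was not tested.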
